A study of Homo sapiens with 12 samples.

Results

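Aminoacyl-tRNA synthetase genes were followed through 12 arrays of ML-2 cells, an established human acute myeloid leukaemia line. Members were all genes whose symbol in the array annotation was a letter code followed by ARS, ARS1 or ARS2, together with EPRS1, FARSA and FARSB. Each was read from probe sets that carry exactly 1 symbol, using the one with the highest mean over the 12 arrays. This gave 32 genes of 19775 on the array, 17 for cytosolic and 15 for mitochondrial enzymes, and the rule used no difference between groups. MARS1, QARS1 and TARS2 were reached only by probe sets with several symbols and were set aside.

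The study treated ML-2 cells with 2 µM SGI-110 or an equal volume of solvent, and 24 h later added 5 µM ASTX660 or solvent for 9 h. SGI-110 (guadecitabine) is a prodrug of decitabine, which blocks DNA methylation, and ASTX660 antagonises inhibitor of apoptosis proteins. Solvent controls received neither agent, the SGI-110 group is labelled 33 h, the ASTX660 group had ASTX660 for 9 h, and the combination had SGI-110 before ASTX660. Each of these 4 groups held 3 arrays from 3 independent experiments, and all came from 1 cell line. The array titles end in 2, 9 or 13, taken here to be the experiments, although no label says so. The sources do not say whether SGI-110 was still in the medium during the last 9 h.

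Aminoacyl-tRNA synthetases join each amino acid to its tRNA, the step that supplies the ribosome with charged tRNA. Most amino acids have a cytosolic enzyme for nuclear-encoded proteins and a separate nuclear-encoded enzyme that is imported to serve mitochondrial translation. Several cytosolic enzymes sit together in the multisynthetase complex. When charged tRNA runs short, the kinase GCN2 phosphorylates eIF2 and translation of the transcription factor ATF4 rises, and many cytosolic synthetase genes are known targets of ATF4, through elements that join sites for C/EBP and ATF proteins. MYC is likewise known to bind genes of protein synthesis, at E-boxes, and WARS1 is a known interferon-inducible gene.

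Many synthetase genes fell with SGI-110, in cells with and without ASTX660, and none was called higher. YARS1 (tyrosine) fell by 29.3% with SGI-110 alone, GARS1 (glycine) fell by 23.4% and IARS1 (isoleucine) fell by 22.3%, with FARS2, WARS1 and LARS1 between them. ASTX660 changed none of the 32 detectably. In the comparison of SGI-110 with solvent, 14 of 32 members were lower and 0 higher at an adjusted p under 0.05 (limma, Benjamini-Hochberg over 12689 tested genes), where 5.9% of all tested genes were lower and 9.5% higher. The median log2 difference of the members was −0.17, ranging from −0.50 to 0.14, beside 0.000467 for all tested genes. Members were brighter than most genes, so the comparison was also read against the 1961 tested genes with a mean of at least 10, of which 12.4% were called lower. Changes were small in size, and none of the 32 reached a 2-fold difference. In bulk cells, fewer cells of a type and less RNA per cell cannot be told apart.

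**Figure D1:**
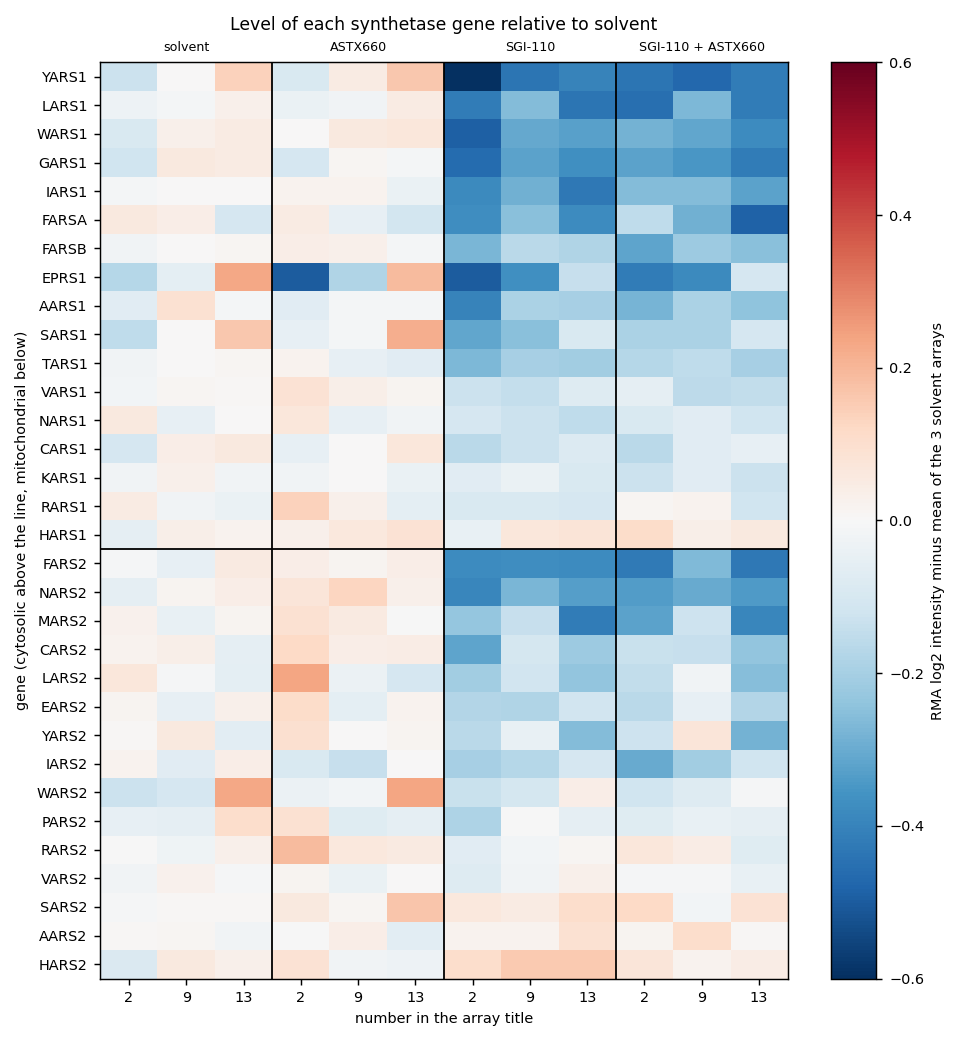
Level of the 32 synthetase genes in the 12 arrays. Rows are genes, cytosolic above the line and mitochondrial below, columns are arrays by group and title number, and colour is the RMA log2 intensity minus the mean of the 3 solvent arrays of that gene. Blue fills most rows in the 6 arrays with SGI-110, from YARS1 at the top, while HARS1, AARS2, SARS2 and HARS2 stay pale or red there.

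The means over the 32 members moved together in every array that had SGI-110. Relative to the mean of the solvent arrays, SGI-110 arrays 2, 9 and 13 stood at −0.23, −0.15 and −0.16, and the combination arrays at −0.17, −0.14 and −0.19. Solvent arrays stood at −0.03, 0.000897 and 0.03, and ASTX660 arrays at 0.02, −0.00236 and 0.03. The 6 arrays with SGI-110 therefore all lay below the 6 without it, and the 2 sets of 6 did not overlap. For the 17 cytosolic genes the arrays with SGI-110 lay between −0.30 and −0.20, and for the 15 mitochondrial genes between −0.16 and −0.07.

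Promoter windows of the synthetase genes were searched because ATF4, MYC and interferon are known regulators of some of them. RefSeq windows on GRCh38.p14, reaching from 250 bases before to 50 after a start, were held for 27 of the 32 members, 9 of them with several windows (36 in all). The 5 without a window were AARS2, LARS1, VARS1, VARS2 and YARS1, so nothing was searched for them. The C/EBP-ATF element was searched as TGATGNAA on both strands and lay in windows of 7 of these 27 members, beside 3.62% of all 35116 windows. In 5 of these 7 it was the form TGATGCAA, which overlaps the first motif and which 0.866% of all windows hold. Of the 7, all but YARS2 were called lower in the pooled SGI-110 effect, the mean of the differences with and without ASTX660. Of all 27 members with a window, 18 were called lower there. For each element, members are counted by gene over all windows of that gene, while the share beside them is per window, so the units differ. Each of the 7 is printed here with 10 bases on either side, read along the gene from 5′ to 3′, with the element in capitals, because these are the letters the members share. The element lay in AARS1 at −187 (chr16:70289676-70289703, minus strand), in CARS1 at −2 (chr11:3057408-3057435, minus) and in GARS1 at −33 (chr7:30594835-30594862, plus). IARS1 had it at −13 (chr9:92293693-92293720, minus), NARS1 at 15 (chr18:57621805-57621832, minus), TARS1 at 3 (chr5:33440957-33440984, plus) and YARS2 at −197 (chr12:32756077-32756104, minus).
AARS1: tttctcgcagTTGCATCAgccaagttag
CARS1: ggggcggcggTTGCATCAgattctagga
GARS1: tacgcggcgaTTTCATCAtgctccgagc
IARS1: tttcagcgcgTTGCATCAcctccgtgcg
NARS1: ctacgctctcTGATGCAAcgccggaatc
TARS1: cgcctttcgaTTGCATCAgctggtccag
YARS2: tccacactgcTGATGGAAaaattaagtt

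The E-box was searched as CACGTG, which reads alike on both strands, and lay in windows of 4 members (CARS2, EARS2, IARS1 and MARS2), beside 7.26% of all windows. An interferon response element, searched on both strands as GAAA, any 2 bases and GAAA again, lay in windows of 2 members, EARS2 and WARS1, beside 3.57% of all windows. WARS1 held it at −55 from one of its starts (chr14:100375383-100375412, minus strand). IARS1 was the member whose window held both the E-box and the C/EBP-ATF element, and its 250 bases upstream of the start (chr9:92293698-92293947, minus strand) are shown with both in capitals. A match describes letters in a window and was not tested as a binding site, and no methylation or binding data were part of the arrays.
WARS1: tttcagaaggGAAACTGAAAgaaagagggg
IARS1 upstream: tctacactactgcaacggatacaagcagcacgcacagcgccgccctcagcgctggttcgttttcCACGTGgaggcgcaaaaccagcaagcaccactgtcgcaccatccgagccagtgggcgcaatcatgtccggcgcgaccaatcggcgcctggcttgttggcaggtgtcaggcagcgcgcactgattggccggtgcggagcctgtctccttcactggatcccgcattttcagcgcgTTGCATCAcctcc

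**Figure D2:**
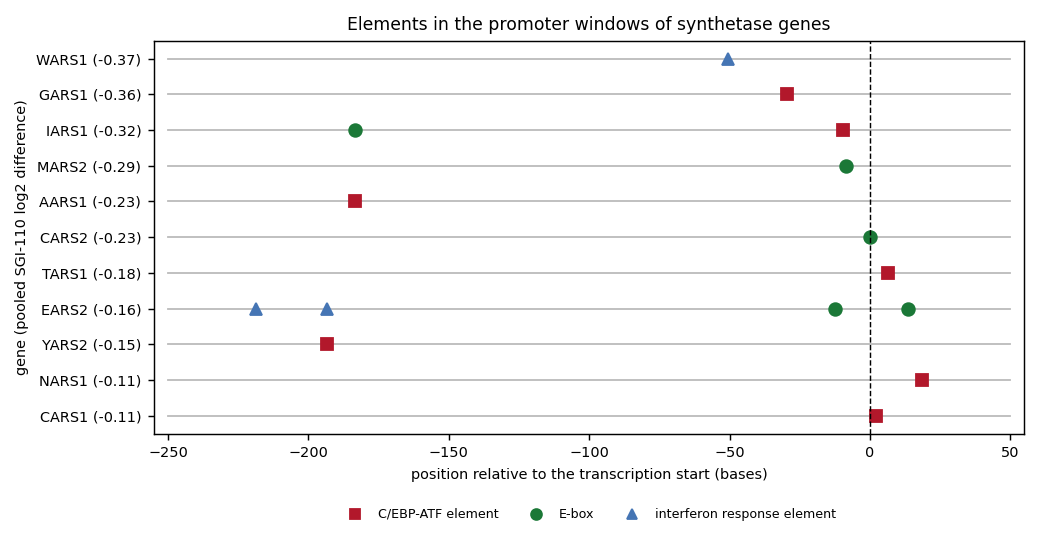
Position of the searched elements in the promoter windows of the 11 members that hold any. The x axis gives bases relative to the transcription start, each grey line is a window of 300 bases, and the log2 difference of the pooled SGI-110 effect stands beside each gene. EARS2 has several windows, so 1 element can appear at more than 1 position, and the C/EBP-ATF elements of GARS1, IARS1, CARS1, TARS1 and NARS1 lie close to the start.

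Because SGI-110 was given in 2 sets of arrays that share none, its change was also taken as the mean of the difference without ASTX660 and the difference with it, called the pooled SGI-110 effect (6 arrays against 6). Here 21 of 32 members were lower and 0 higher (limma adjusted p under 0.05), beside 14.1% of all tested genes lower and 15.8% higher, and 23.6% lower among the bright genes. Every array with SGI-110 lay below every array without it for 15 of the 32, beside 7.92% of all tested genes. These were the 14 genes given array by array and VARS1.

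Among the cytosolic enzymes of the multisynthetase complex, IARS1 and LARS1 fell. IARS1, the isoleucyl-tRNA synthetase, read 11.95, 11.96 and 11.96 in solvent arrays 2, 9 and 13 and 11.98, 11.98 and 11.92 with ASTX660. It read 11.58, 11.67 and 11.53 with SGI-110 and 11.70, 11.70 and 11.64 with both agents. All 6 values with SGI-110 lay below all 6 without it, and the gap was far wider than the spread within groups (SD 0.00919 to 0.0699, n = 3). The pooled effect was −0.32 (SE 0.0276, limma adjusted p = 1.86e-06), with −0.36 in cells without ASTX660 and −0.28 in cells with it. LARS1, the leucyl-tRNA synthetase, which also takes part in leucine sensing by mTORC1, read 11.02, 11.04 and 11.08 with solvent and 11.01, 11.03 and 11.10 with ASTX660. It read 10.63, 10.79 and 10.61 with SGI-110 and 10.60, 10.78 and 10.63 with the combination. Array 9 was the highest of both groups with SGI-110 and still lay below every array without it. LARS1 fell by 0.37 (SE 0.0403, limma adjusted p = 1.33e-05).

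The other complex members measured were KARS1, EPRS1 and RARS1. KARS1, the lysyl-tRNA synthetase that serves both cytosol and mitochondria, fell by only 5.35% in the pooled effect (limma adjusted p = 0.00956, 0.0989 without an intensity trend in the variance). EPRS1, a fused enzyme for glutamate and proline, had the largest standard error of all members (0.15). It read 10.84, 10.95 and 11.24 with solvent, 10.51, 10.64 and 10.87 with SGI-110, 10.51, 10.83 and 11.20 with ASTX660, and 10.59, 10.63 and 10.91 with both. Array 13 was the highest in each group, so the groups overlapped although the SGI-110 value was below the solvent value of the same number in all 3 experiments. The difference of −0.33 between SGI-110 and solvent did not pass the test (limma adjusted p = 0.165), and passed with the experiment number as a block (EPRS1, adjusted p = 0.000161). In the combination against ASTX660 the EPRS1 difference was −0.14 (limma adjusted p = 0.588) and passed under none of the 22 alternatives, the block included (0.0633), and in experiment 2 the combination array lay above the ASTX660 array. RARS1 (arginine) had a pooled difference of −0.08 and did not pass (adjusted p = 0.181).

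Of the 12 cytosolic enzymes outside the complex list, 11 were called lower in the pooled effect and HARS1 was not. The shares called lower were 14.1% of all tested genes and 23.6% of the bright genes. YARS1, the tyrosyl-tRNA synthetase, read 10.40, 10.53 and 10.67 with solvent and 10.44, 10.58 and 10.69 with ASTX660. It read 9.87, 10.09 and 10.13 with SGI-110 and 10.09, 10.06 and 10.11 with the combination. Its lowest value without SGI-110 stood above its highest value with it, and the pooled effect of −0.49 was the lowest of the 32 (SE 0.0575, limma adjusted p = 2.65e-05). WARS1, the tryptophanyl-tRNA synthetase, read 10.18, 10.30 and 10.32 with solvent and 10.27, 10.33 and 10.34 with ASTX660. It read 9.78, 9.96 and 9.94 with SGI-110 and 9.99, 9.96 and 9.89 with both, again with no overlap, and fell by 0.37 (SE 0.0417, limma adjusted p = 2.06e-05). WARS1 is a known interferon-inducible gene, and whether interferon had a part in its change was not tested. GARS1, the glycyl-tRNA synthetase of cytosol and mitochondria, read 11.48, 11.66 and 11.65 with solvent and 11.50, 11.61 and 11.59 with ASTX660. Values were 11.14, 11.28 and 11.23 with SGI-110 and 11.28, 11.25 and 11.18 with both, and GARS1 fell by 0.36 (SE 0.0384, limma adjusted p = 1.24e-05).

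FARSA and FARSB encode the 2 subunits of cytosolic phenylalanyl-tRNA synthetase, and both fell. FARSA read 10.07, 10.05 and 9.91 with solvent, 10.06, 9.96 and 9.90 with ASTX660, 9.64, 9.76 and 9.63 with SGI-110, and 9.86, 9.72 and 9.53 with both. The combination arrays of FARSA were the most scattered (SD 0.167), and the highest of them lay just under the lowest array without SGI-110. FARSA fell by 0.30 (SE 0.0559, limma adjusted p = 0.00097). FARSB read 10.24, 10.26 and 10.27 with solvent, 10.30, 10.29 and 10.25 with ASTX660, 9.99, 10.10 and 10.08 with SGI-110, and 9.94, 10.04 and 10.01 with both. FARSB was tight within the groups without SGI-110 (SD 0.0196 and 0.0237) and fell by 0.24 (SE 0.0335, limma adjusted p = 0.000116).

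AARS1, TARS1 and NARS1 were also called lower in the pooled effect. Their windows hold the TGATGCAA element, as those of IARS1 and CARS1 do, and whether the element had a part in the change was not tested. AARS1 (alanine) read 10.35, 10.51 and 10.41 with solvent, 10.35, 10.41 and 10.41 with ASTX660, 10.02, 10.23 and 10.22 with SGI-110, and 10.14, 10.23 and 10.18 with both. SGI-110 array 2 stood lowest, and the pooled effect was −0.23 (SE 0.0434, limma adjusted p = 0.00102). TARS1 (threonine) read 11.08, 11.10 and 11.11 with solvent, 11.12, 11.05 and 11.03 with ASTX660, 10.83, 10.90 and 10.89 with SGI-110, and 10.93, 10.95 and 10.90 with both. The 3 combination arrays of TARS1 all lay at or above the SGI-110 arrays, but the interaction did not pass (0.08, limma adjusted p = 1), and the pooled effect was −0.18 (adjusted p = 0.000231). NARS1 (asparagine) read 12.15, 12.04 and 12.09 with solvent, 12.16, 12.04 and 12.07 with ASTX660, 11.99, 11.96 and 11.94 with SGI-110, and 12, 12.02 and 11.97 with both. Its highest array with SGI-110 lay just under its lowest without, and it fell by 7.51% (limma adjusted p = 0.0063). The other 3 called cytosolic genes were SARS1 (serine, −0.21, adjusted p = 0.0158), VARS1 (valine, −0.14, 0.0159) and CARS1 (cysteine, −0.11, 0.0403), and the call of CARS1 was lost under 12 of 21 alternatives. HARS1 (histidine) stood at 0.02 and did not pass (limma adjusted p = 0.745).

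**Figure D3:**
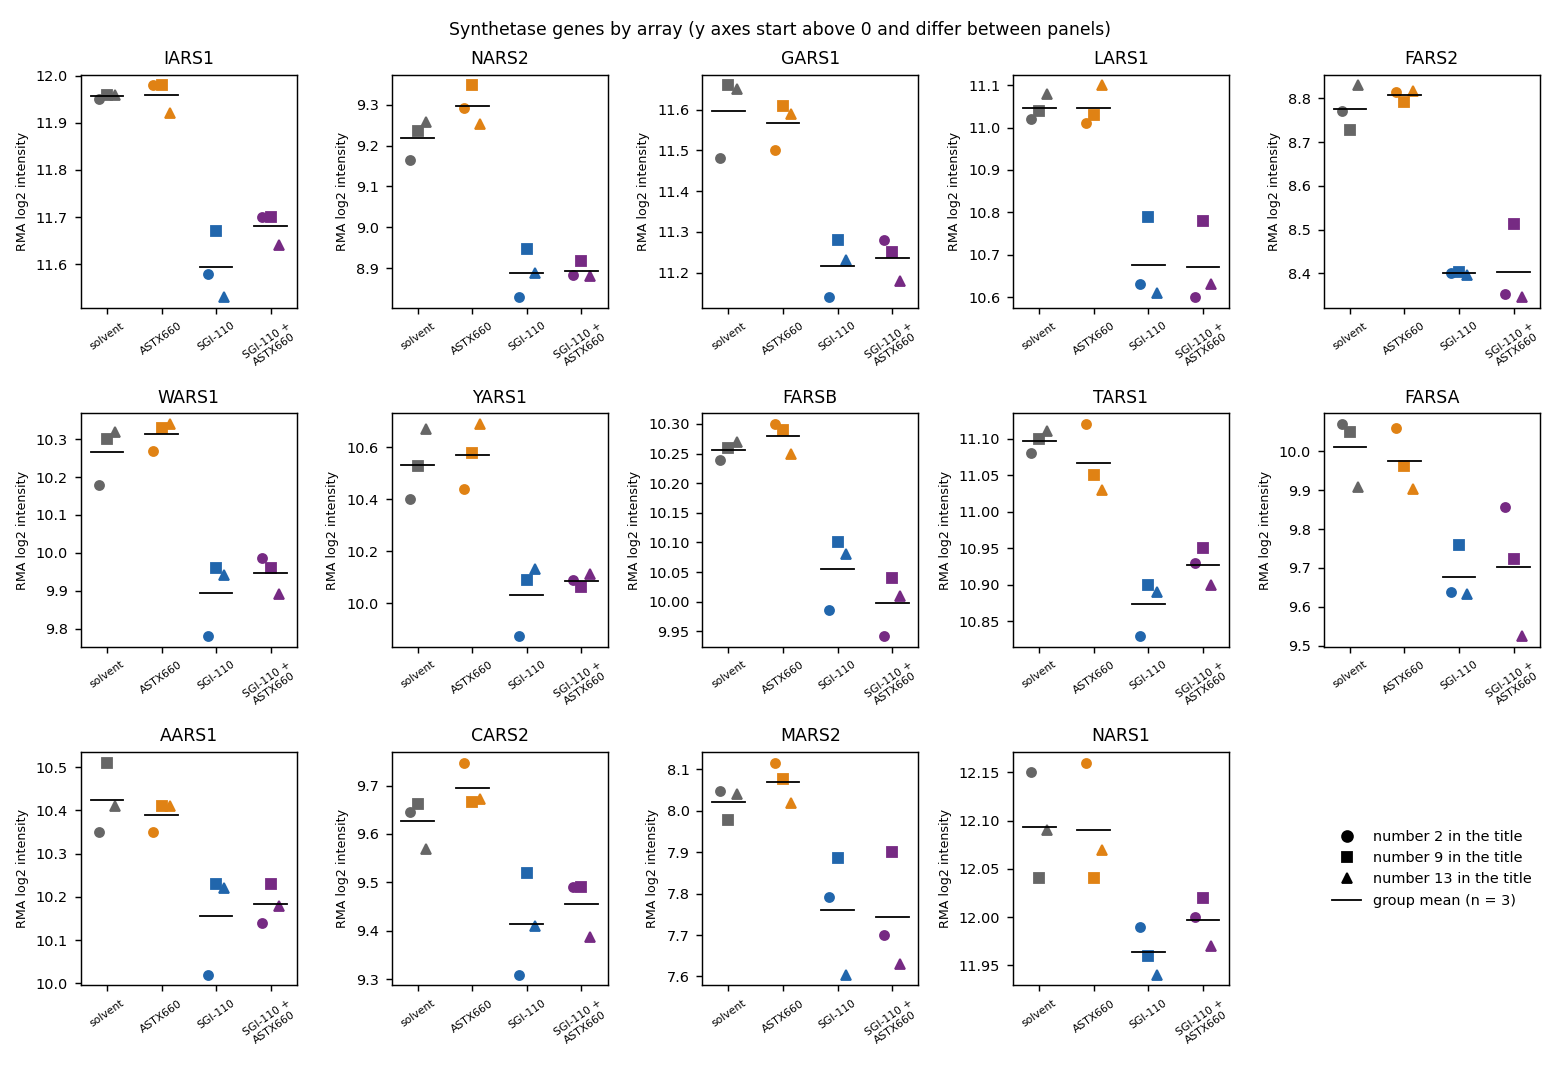
RMA log2 intensity of 14 synthetase genes in each of the 12 arrays. Marker shape gives the number in the array title, colour the group, and the line the mean of 3 arrays, and axes start above 0 and differ between panels. In each panel the 6 arrays with SGI-110 lie below the 6 arrays without it, for YARS1 from 9.87 to 10.13 against 10.40 to 10.69.

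Of the 15 mitochondrial enzymes, 7 were called lower in the pooled effect, beside 14.1% of all tested genes. In SGI-110 against solvent 4 of them were called lower, beside 5.9% of all tested genes. FARS2, the mitochondrial phenylalanyl-tRNA synthetase, read 8.77, 8.73 and 8.83 with solvent and 8.82, 8.79 and 8.82 with ASTX660. The SGI-110 arrays read 8.40 in all 3 experiments (SD 0.00335), and the combination arrays 8.35, 8.51 and 8.35. FARS2 had the largest fall of the mitochondrial enzymes, 0.39 (SE 0.0423, limma adjusted p = 1.41e-05). NARS2, the mitochondrial asparaginyl-tRNA synthetase, read 9.17, 9.24 and 9.26 with solvent and 9.29, 9.35 and 9.25 with ASTX660. Values were 8.83, 8.95 and 8.89 with SGI-110 and 8.88, 8.92 and 8.88 with both, a gap several times the spread within groups, and NARS2 fell by 0.37 (SE 0.0387, limma adjusted p = 1.09e-05).

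MARS2, which charges mitochondrial methionyl-tRNA, read 8.05, 7.98 and 8.04 with solvent, 8.12, 8.08 and 8.02 with ASTX660, 7.79, 7.89 and 7.60 with SGI-110, and 7.70, 7.90 and 7.63 with both. Its arrays numbered 9 were the highest and those numbered 13 the lowest of the groups with SGI-110, and it fell by 0.29 (SE 0.0595, limma adjusted p = 0.00189). CARS2, the mitochondrial cysteinyl-tRNA synthetase, read 9.65, 9.66 and 9.57 with solvent, 9.75, 9.67 and 9.67 with ASTX660, 9.31, 9.52 and 9.41 with SGI-110, and 9.49, 9.49 and 9.39 with both. It fell by 0.23 (SE 0.0431, limma adjusted p = 0.00126), a call that did not hold on the mean of its 5 probe sets (adjusted p = 0.0963). LARS2, EARS2 and IARS2 had pooled differences of −0.18, −0.16 and −0.14, with limma adjusted p of 0.0369, 0.0222 and 0.0117 in that order. The calls of LARS2 and EARS2 were lost under 9 and 5 of 21 alternatives. The 8 not called were AARS2, HARS2, PARS2, RARS2, SARS2, VARS2, WARS2 and YARS2, and YARS2 came nearest (−0.15, limma adjusted p = 0.0639). YARS2 was called with the experiment number as a block (adjusted p = 0.00931) and without array 9 of the combination (0.0107) or of SGI-110 (0.0418).

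HARS2, AARS2 and SARS2 ran the other way in cells without ASTX660. HARS2, the mitochondrial histidyl enzyme whose gene lies head to head with HARS1, read 8.64, 8.69 and 8.69 with SGI-110 against 8.45, 8.59 and 8.56 with solvent. All 3 SGI-110 arrays of each of these 3 genes stood above the 3 solvent arrays. The same separation was seen in 19.5% of all tested genes, so it does not set these 3 genes apart. None of the 3 passed the test (HARS2 0.14, limma adjusted p = 0.141). With array weights HARS2 passed (adjusted p = 0.0371), and it was the single higher call of any member in any alternative for that comparison.

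For 12 amino acids both a cytosolic and a mitochondrial enzyme were measured, a grouping made after the values were seen. In the pooled SGI-110 effect both compartments were called lower for 5 of them, cysteine, phenylalanine, isoleucine, leucine and asparagine. The cytosolic enzyme alone was called for 5, alanine, serine, valine, tryptophan and tyrosine, and neither for 2, histidine and arginine. The mitochondrial enzyme alone was called for 0 of the 12. Of all tested genes, 14.1% were called lower in this effect. The call of CARS1 was lost under 12 of 21 alternatives, which would move cysteine to the mitochondrial enzyme alone. That of LARS2 was lost under 9 of 21, which would move leucine to the cytosolic enzyme alone. The pooled differences were −0.49 for YARS1 and −0.15 for YARS2, and −0.37 for WARS1 and −0.10 for WARS2. With the experiment number as a block YARS2 was called too, which would move tyrosine to the amino acids with both compartments lower. Differences between the enzymes of a pair were not tested.

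By list, 10 of 17 cytosolic and 4 of 15 mitochondrial genes were called lower in SGI-110 against solvent, beside 5.9% of all tested genes. The medians were −0.22 and −0.15, and 0 were higher. Cytosolic genes described as ATF4 targets had 8 of 11 lower and a median of −0.33. The cytosolic genes not so described had 2 of 6 lower, FARSA and FARSB, and a median of −0.10. In the combination against ASTX660 these lists had 7 of 11 and 3 of 6 lower, beside 7.69% of all tested genes, with medians of −0.21 and −0.13. In the pooled effect they had 10 of 11 and 4 of 6 lower, beside 14.1% of all tested genes. In SGI-110 against solvent, enzymes of the class I fold had 6 of 17 lower (median −0.16) and those of class II 8 of 15 (median −0.20). These class counts were the same in the combination against ASTX660, and were 11 of 17 and 10 of 15 in the pooled effect. The difference between any of these lists was not tested. The 21 genes called in the pooled effect ranged in brightness from the 51st to the 98.8th percentile of tested genes, and the 11 not called from the 30.6th to the 91.7th.

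The SGI-110 change was next read in cells that also had ASTX660. In the combination against ASTX660, which shares no array with SGI-110 against solvent, 14 of 32 members were lower and 0 higher (limma adjusted p under 0.05), beside 7.69% of all tested genes lower and 8.37% higher. The median was −0.15, ranging from −0.49 for YARS1 to 0.05 for AARS2, beside −0.00804 for all tested genes. Of the 14 called in each comparison, 13 were called in both (92.9% of each), and the others were NARS1 without ASTX660 and KARS1 with it. The KARS1 call (limma adjusted p = 0.0485) was lost under 17 of 22 alternatives. Every combination array lay below every ASTX660 array for 17 members, beside 15.2% of all tested genes, and for SGI-110 against solvent this count was 20, beside 16.6%. With the experiment number as a block IARS2, NARS1, SARS1 and VARS1 passed in addition (limma adjusted p = 0.0164, 0.0296, 0.00219 and 0.0412). The count was 9 without ASTX660 array 9 and 8 without combination array 13. The calls of AARS1, FARSA, KARS1, MARS2 and TARS1 were lost in both of these fits, and that of CARS2 in the fit without combination array 13.

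In the combination against solvent, which uses the same solvent arrays as SGI-110 against solvent, 14 members were lower and 0 higher, beside 5.85% of all tested genes lower and 12.1% higher. The median was −0.15, from −0.45 for YARS1 to 0.07 for HARS1, and 18 members had every combination array below every solvent array, beside 16.9% of all tested genes. Higher genes made up 67.4% of all calls in this comparison, 54.1% after quantile normalization and 77.3% after centring each array on its median, and the members' calls were lower under all 3 scalings. IARS2 and KARS1 joined the called genes here (−0.21 and −0.11, limma adjusted p = 0.018 and 0.0182), while CARS2 and NARS1 did not pass (adjusted p = 0.0689 and 0.101). With the experiment number as a block CARS2, NARS1, EPRS1 and SARS1 passed as well (limma adjusted p = 0.0272, 0.0251, 0.000375 and 0.0157).

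ASTX660 alone left the synthetase genes at the level of solvent within the precision of 3 arrays. Its differences from solvent ranged from −0.16 (EPRS1) to 0.10 (RARS2) with a median of 0.02, and 0 of 32 passed (limma, smallest adjusted p 0.748, 0 at an unadjusted p under 0.05). In that comparison 0% of all tested genes were called, with 894 at an unadjusted p under 0.05. Adding ASTX660 after SGI-110 likewise called 0 of 32 and 0% of genes (limma), with 1 member at an unadjusted p under 0.05 and differences from −0.09 (HARS2) to 0.09 (IARS1). That member was IARS1, whose combination arrays of 11.64 to 11.70 overlapped its SGI-110 arrays of 11.53 to 11.67. The pooled ASTX660 effect called 0 members and 0% of genes as well (limma, 0 members at an unadjusted p under 0.05).

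The interaction asked whether the SGI-110 change differed with ASTX660 present. It called 0 of 32 members and 0% of tested genes (limma, 0 members and 204 genes at an unadjusted p under 0.05), with estimates from −0.10 (HARS2) to 0.19 (EPRS1). The 95% intervals of the members reached from −0.37 to 0.65, so for the members with the widest spread they include differences of the size of the SGI-110 change itself. On the probe set used for LARS1 both SGI-110 differences were close, −0.37 without ASTX660 and −0.38 with it. Its further probe sets differed more or less: −0.33 and −0.48, −0.17 and −0.12, and −0.33 and 0.08 in the same order.

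**Figure D4:**
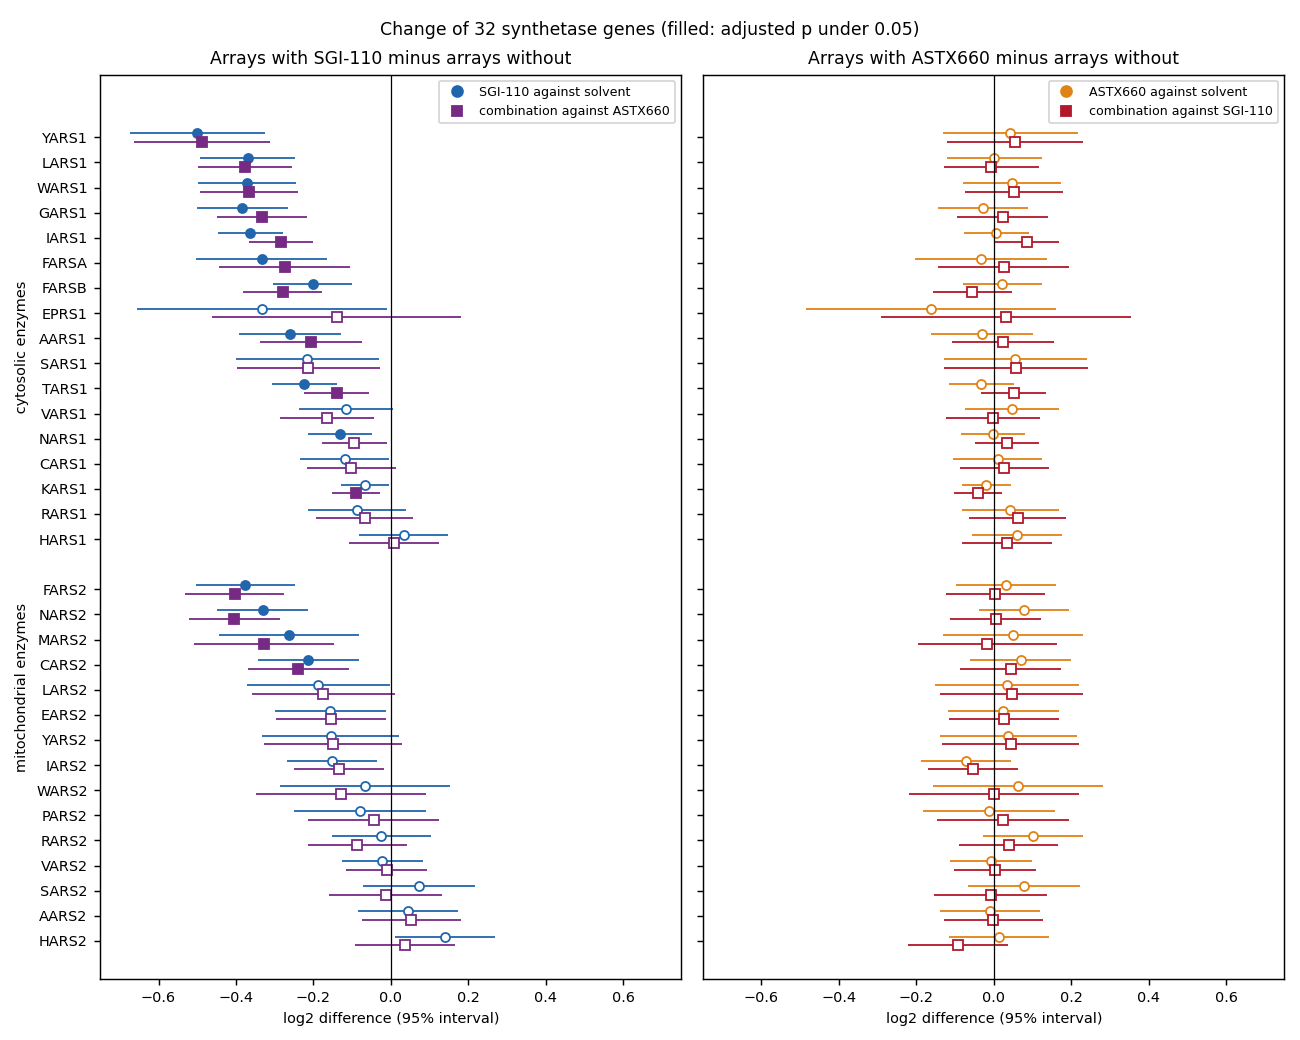
Log2 difference of each of the 32 synthetase genes with its 95% interval from the limma fit, cytosolic genes above and mitochondrial below. The left panel sets SGI-110 against solvent (circles) beside the combination against ASTX660 (squares), the right panel ASTX660 against solvent beside the combination against SGI-110, and filled symbols mark an adjusted p under 0.05. Filled symbols stand only on the left, 14 in each comparison and all below 0, and the right panel holds none.

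Genes next to the synthetases in the pathway were read from lists chosen with earlier results of these data known. The scaffold gene AIMP1 of the multisynthetase complex did not pass with SGI-110 alone (−0.05, limma adjusted p = 0.472). Among 9 related and accessory enzymes, 4 were lower with SGI-110 alone and 0 higher, beside 5.9% and 9.5% of all tested genes. In the pooled effect 6 were lower and 1 higher, beside 14.1% and 15.8% of all tested genes. The higher one was PSTK, the kinase of the selenocysteine tRNA pathway (0.23, limma adjusted p = 0.02). GATB, a subunit of the amidotransferase that makes mitochondrial glutaminyl-tRNA, was among the lower ones with SGI-110 alone (−0.24, limma adjusted p = 0.0451). Of 5 factors that deliver charged tRNA to the ribosome, the mitochondrial elongation factor TUFM was lower with SGI-110 alone (−0.20, limma adjusted p = 0.0108). The cytosolic EEF1A1 stood at 0.00461 in the same comparison, with a limma adjusted p of 0.903.

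ATF4 and some genes of its response fell as well. Of 15 genes of uncharged tRNA sensing and the ATF4 response, 7 were lower and 0 higher with SGI-110 alone, beside 5.9% and 9.5% of all tested genes. In the pooled effect 9 were lower and 1 higher, beside 14.1% and 15.8% of all tested genes. The sensing genes EIF2AK4, which encodes GCN2, and GCN1 passed in neither (limma adjusted p = 0.567 and 0.382 with SGI-110 alone). ATF4 itself read 12.38, 12.44 and 12.50 with solvent, 12.44, 12.47 and 12.46 with ASTX660, 11.93, 12.10 and 12.02 with SGI-110, and 12.07, 12.09 and 12 with both. These sets of 6 did not overlap, and the pooled difference was −0.41 (SE 0.0307, limma adjusted p = 5.64e-07). ASNS, asparagine synthetase, a known ATF4 target that is no tRNA synthetase, fell by 0.53 (adjusted p = 0.000984), and SLC7A5, which encodes a transporter of large neutral amino acids, by 0.65 (limma adjusted p = 1.58e-07). SESN2, an inhibitor of mTORC1 that is also a p53 target, was the 1 gene of the list that rose (0.24, adjusted p = 0.0361). MYC read 11.53 to 11.58 in the 6 arrays without SGI-110 and 10.91 to 11.25 in the 6 with it, and fell by 0.46 (limma adjusted p = 7.23e-06). That ATF4, its targets or MYC had a part in the synthetase change was not tested.

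Markers of the labelled cell type were present, and some moved with SGI-110. Of 8 myeloid markers measured, 6 lay above the array median in all 12 arrays, with MPO at 13.34 and LYZ at 13.29, and CD33 was not among the genes read. The mean of the 8 was 8.32 to 8.53 over the solvent arrays, 8.37 to 8.47 with ASTX660, 8.69 to 8.82 with SGI-110 and 8.67 to 8.93 with both. Of the 7 tested, 3 rose with SGI-110 alone (LYZ, CSF1R and CEBPA) and 0 fell (limma), beside 9.5% and 5.9% of all tested genes. The part of the myeloid markers in the synthetase change was not tested. Of 3 lymphoid, 2 erythroid and 4 fibroblast or epithelial markers, CD3E, CD79A, HBB, COL1A1 and KRT8 lay above the array median in all 12 arrays and ALAS2 in 11, while MS4A1, COL3A1 and EPCAM did so in none. The keratin gene KRT8 rose in the pooled SGI-110 effect (0.58, limma adjusted p = 0.00475), and the mean of the 4 fibroblast or epithelial markers was 4.92 to 4.94 over the solvent arrays, 4.68 to 4.95 with ASTX660, 5.02 to 5.19 with SGI-110 and 4.94 to 5.14 with both. The lymphoid and erythroid means overlapped between solvent and SGI-110 arrays, and the part of any of these markers in the synthetase change was not tested. Array medians ran from 4.69 to 4.77, and the 3′ minus 5′ difference of GAPDH probe sets from −0.06 to 0.02.

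The change was also read within each experiment, an arrangement added after the values were seen. In SGI-110 minus solvent, 28, 26 and 27 of 32 members were below 0 in the experiments numbered 2, 9 and 13, beside 50.8%, 46.5% and 49.4% of all tested genes. In the combination minus ASTX660 the counts were 28, 25 and 29, beside 55.5%, 48.6% and 48.3% of genes. Members below 0 in all 3 experiments numbered 25 without ASTX660, beside 27.9% of genes, and 22 with it, beside 25.6%. The smallest median was that of experiment 9 in the combination minus ASTX660 (−0.09).

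Other probe sets of the same genes gave the same sign in most cases. Of 26 further probe sets above the array median in at least 3 arrays, from 17 genes, 24 had the sign of the probe set used and 23 had a pooled SGI-110 difference below 0. Those of the other sign belong to CARS2 (0.05 against −0.23) and EARS2 (0.04 against −0.16), both called lower in the pooled effect. The second WARS1 probe set stood at −0.38 against −0.37, that of FARSA at −0.32 against −0.30, and the 3 further ones of LARS1 at −0.41, −0.15 and −0.12 against −0.37. The last of these LARS1 probe sets read −0.33 without ASTX660 and 0.08 with it. EPRS1 had 3 probe sets at −0.24, −0.27 and −0.17.

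Calls differed in how firmly they stood, and in SGI-110 against solvent the block on experiment number added CARS1, EPRS1, IARS2, KARS1 and SARS1 (limma adjusted p = 0.0259, 0.000161, 0.00747, 0.0363 and 0.00198). GARS1, IARS1, LARS1, NARS2, WARS1 and YARS1 (6 genes) were called lower in all 3 comparisons that hold SGI-110 and in the pooled effect under every alternative that was run. In SGI-110 against solvent, MARS2 passed at an adjusted p of 0.04995 and lost its call under 11 of 22 alternatives, up to 0.209 without SGI-110 array 13. NARS1 lost it under 8, up to 0.145 without solvent array 2, CARS2 under 6, up to 0.434 on the mean of all its probe sets, and AARS1 under 1, without solvent array 9 (0.0568). FARSB and TARS1 lost it on the mean of all probe sets (limma adjusted p = 0.343 and 0.368), where 1 probe set of each lies below the median in every array.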

How the data were processed

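The values are RMA log2 intensities of 54675 probe sets, deposited by the authors and made with the affy package, per the submitters' processing notes, which do not say whether the arrays were normalized in 1 run. RNA (100 ng) came from 12 arrays in 4 groups of 3. Probe sets were named from the platform annotation (42898 with a symbol, 1801 with several and left out), and 12689 of 19775 genes were tested, those above the array median in at least 3 arrays. limma 3.58.1 in R 4.3.3 fitted 1 mean per group, with an intensity trend for the variance, leaving 8 residual degrees of freedom, and p-values were adjusted by Benjamini-Hochberg. The number of arrays limits the precision (median SE 0.085, interaction 0.12). A p-value sets a difference against the spread of arrays within groups, moderated across genes. The main fit did not use the experiment number. The script was tested on simulated data.

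Members, lists and alternatives were chosen with earlier results of these data known. Values by array are given for members called with SGI-110, in order of the pooled adjusted p, at most 14 (WARS1, to be named in any case, is among them); EPRS1 and HARS2 were added after their values were seen. Alternatives were the mean of all probe sets, no filter, a filter on all 12 arrays, median centring, quantile normalization, experiment number as a block, no trend, robust variance, array weights, only the groups compared, and each array left out. Deviations of same-numbered arrays correlated at 0.377, 0.367 and 0.572 (SGI-110 and solvent, numbers 2, 9 and 13) but at 0.057 for number 2 in the combination and ASTX660. Protein sequences were not used here.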

Additional observations from a re-analysis of the deposited data

How the results depend on the processing

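Members called kept their direction, lower, in every alternative for the comparisons that hold SGI-110, apart from HARS2, called higher with array weights. The count was 11 to 19 in SGI-110 against solvent (14 as reported), 10 to 18 in the combination against solvent and 17 to 23 in the pooled effect, with each array left out in turn giving 11 to 14, 10 to 14 and 19 to 21. In the combination against ASTX660 leaving out arrays gave 8 to 13 of 32, lowest without combination array 13 (8) and ASTX660 array 9 (9). ASTX660 and the interaction gave 0 members throughout. With the replicate block the count was 19 in SGI-110 against solvent, 18 in the combination against either control and 23 in the pooled effect, so the block moved no count over 1.5 times. The shares of all tested genes called under these alternatives are not given beside the counts. Gains and losses of calls are therefore not read as particular to the members. All 12 arrays correlated best with their own number, which the labels do not tie to an experiment. For the 14 genes given array by array, in SGI-110 against solvent and the pooled effect, 573 of 602 alternatives kept the call, 29 lost it and 0 reversed. These genes were picked by the pooled adjusted p, so this share is no independent check of them. In the combination against ASTX660, left out of that count, 7 of them were called in every alternative and NARS1 was not called. There TARS1 lost its call under 7 of 22 alternatives, AARS1 and FARSA under 6 each, MARS2 under 3, CARS2 under 2 and FARS2 under 1. With the search limited to bases upstream of the start, 4 members held TGATGNAA. Depth cannot be read from array intensities.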
